A study of Mus musculus with 10 samples.

Results

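The transcription factors of the MYC network were examined in granulocyte-macrophage progenitors (GMPs), the bone marrow cells that give rise to neutrophils and monocytes. The network was taken as 10 named genes, which are *Myc*, *Mycn*, *Mycl*, *Max*, *Mxd1*, *Mxd3*, *Mxd4*, *Mxi1*, *Mlx*, and *Mlxip*, of 51717 genes measured. Their levels were described in WT GMPs and then compared between WT and *Mpc2* recent KO GMPs. The study deleted *Mpc2*, a subunit of the mitochondrial pyruvate carrier, to ask how blood progenitors respond when pyruvate cannot enter mitochondria. WT cells carried ROSA26 CreER+/-, and recent KO cells carried Mpc2 fl/fl; ROSA26 CreER+/-, each with 5 samples from male C57Bl6/N mice. Both groups therefore expressed the tamoxifen-activated recombinase, and both were fed tamoxifen chow for 2 wk, after which GMPs were taken. The mice were chimeras. In the study's mixed chimeras, irradiated CD45.1+ hosts received CD45.2+ donor marrow together with CD45.1+ WT marrow. The RNA-seq methods do not repeat which type of chimera was used. In the paper, full chimeras with *Mpc2* KO marrow did not survive 2 wk of tamoxifen. Only CD45.2+ GMPs were sorted. CreER from the ROSA26 locus is active in all blood cells derived from the CD45.2+ donor, so deletion was not restricted to GMPs. A WT sample came from a single mouse, whereas each recent KO sample pooled a pair of mice.

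MYC is a transcription factor that drives ribosome production, nutrient uptake, and cell growth, and it binds DNA only as a dimer with MAX. MXD1, MXD3, MXD4, MXI1, MNT, and MGA also pair with MAX, occupy the same E-box sites, and generally repress what MYC activates. MLX is the partner of a parallel branch: with MLXIP (also called MondoA) or MLXIPL (ChREBP) it responds to glucose-derived metabolites and switches on genes such as *Txnip*. In myeloid progenitors MYC supports proliferation, and some MXD proteins, MXD1 among them, are known to rise as cells mature and stop dividing.

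The shared DNA site of both branches is the E-box CACGTG, which reads the same on both strands. RefSeq promoter windows on GRCm38.p6, running from 250 bases before to 50 bases after each start site, were searched for it, and 9 of the 10 network genes had a window. *Myc* was without an entry. An E-box was present in 3 of the 9, against 8.09% of all 27025 genes with a window (7.15% of the 32851 windows), and its presence describes the letters only. The sites of *Max*, *Mlx*, and *Mxd4* are shown because these network genes carry the site that their own products bind, together with those of *Mnt* and *Mlxipl*, 2 further network genes. Among known targets of MLX, *Arrdc4* is shown for its E-box and *Pklr* for the carbohydrate response element, which consists of E-box-like ends separated by 5 bases and was found in 0.119% of windows. Each sequence runs 5′ to 3′ along the strand of its gene, with the motif in capitals.
Max: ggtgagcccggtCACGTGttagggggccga
Mlx: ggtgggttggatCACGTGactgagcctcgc
Mxd4: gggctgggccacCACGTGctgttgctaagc
Mnt: ccccacccaagcCACGTGtgcgcgcgcggt
Mlxipl: gcggctgccatcCACGTGctaaggagagaa
Arrdc4: aaaggtcctgtgCACGTGcactatggtgtc
Pklr: ggacgcCACGGGGCACTCCCGTGgttcct

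The *Max* site lay at chr12:76962234-76962263 on the minus strand, with the first base of the motif at position -3 from the start site. The *Mlx* site lay at chr11:101087238-101087267 on the plus strand, with the motif at position -40. The *Mxd4* site lay at chr5:34187912-34187941 on the minus strand, at position -219. Outside the 10 genes, the sites were at chr11:74830789-74830818 (plus strand) for *Mnt*, chr5:135089780-135089809 (plus strand) for *Mlxipl*, chr7:68749414-68749443 (minus strand) for *Arrdc4*, and chr3:89136447-89136475 (plus strand) for *Pklr*. *Mycn*, *Mycl*, *Mxd1*, *Mxd3*, *Mxi1*, and *Mlxip* had no CACGTG in this window.

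Sequencing gave 14033776 to 19745405 estimated reads per sample, with overlapping ranges in the 2 groups, and 3 reads corresponded to 0.147 to 0.233 CPM (reads scaled to the same library total). *Mpc2*, the deleted gene, was at 60.9 to 117 CPM in WT GMPs and at 17.1 to 43.9 CPM in recent KO GMPs, without overlap. These reads were summed over the whole gene, whereas the paper names exon 3 as its floxed part. They therefore do not measure how completely that exon was deleted. The gene was called lower in recent KO (log2 fold change -1.46, 95% interval -1.98 to -0.95, edgeR adjusted p = 0.0156). This call was lost with a transcript length offset (adjusted p = 0.0741), the replicate block (0.0577), limma on TPM (0.130 and 0.138), and without recent KO 1 (0.05002), each with a log2 fold change of -1.46 to -1.35. Markers matched the GMP label, as *Mpo*, *Elane*, *Ctsg*, and *Prtn3*, which encode primary granule proteins, were among the abundant genes of every sample. The summed level of 8 GMP markers was nevertheless 90019 to 127289 CPM in WT samples and 53660 to 91971 CPM in recent KO samples. *Mpo* and *Elane* were the most abundant genes in this sum. None of the 8 was called, but 6 were at an unadjusted p under 0.05 (edgeR), all lower. Of all tested genes, 10.2% were at that level. *Kit* and *Cd34* had higher estimates (log2 fold changes 0.08 and 0.25). Only *Fcgr3* did not overlap (357 to 456 CPM in WT, 153 to 318 CPM in recent KO), where 2.43% of all tested genes did not. Of the markers of other cells, 3 of 7 macrophage genes (*C1qa*, *C1qb*, and *C1qc*) were called higher in recent KO, where 0.331% of all tested genes were called. Of the 7, 6 had higher estimates, with *Vcam1* the smallest of them (log2 fold change 0.18), and 1, *Adgre1*, had a lower estimate (-0.39). Groups did not overlap for 5 of the 7, against 2.43% of all tested genes. Summed, the list ranged over samples from 16.99 to 37.2 CPM (WT) and from 41.5 to 75.4 CPM (recent KO). Erythroid markers summed to 6.36 to 24.9 CPM in WT samples. Recent KO 1 and 2 had 13.6 and 14.7 CPM of them, and recent KO 3 to 5 had 80.8 to 126 CPM, although none of the list was called. Megakaryocyte markers, also with none called, summed to 8.70 to 17.1 CPM in WT samples and 21.4 to 29.7 CPM in recent KO samples. Of 7 late neutrophil markers none was called, but 4 were at an unadjusted p under 0.05 (edgeR), where 10.2% of all tested genes were. All 4 had higher estimates in recent KO (*Ltf*, *Camp*, *Ngp*, and *Retnlg*). Of the 7, 5 had higher estimates and 2 had lower ones, *S100a8* (log2 fold change -0.08) and *Cxcr2* (-0.28). The median log2 fold change of the list was 1.53. Its sum, in which *S100a8* was the most abundant gene, was 95.1 to 343 CPM for WT and 90.2 to 520.2 CPM for recent KO. Marker lists of stem cells, lymphoid cells, and basophils with mast cells held no called gene, and their sums overlapped between the groups. No marker was at 0 in every sample. These shifts accompany every group difference below, their part in it was not tested, and in bulk RNA fewer cells of a type and less RNA per cell cannot be told apart.

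*Myc* was the most abundant gene of the network in WT GMPs. Levels of different genes were compared in TPM, which corrects reads for transcript length and library total. The mean of *Myc* was 108 ± 5.44 TPM (SD, n = 5), which placed it at rank 1181 of all genes, when 10280 genes reached 1 TPM. *Mlx* followed at 42.6 ± 6.17 TPM, and it stood well above its dimer partner *Mlxip* at 9.25 ± 0.520 TPM. *Mxi1* was at 9.56 ± 0.618 TPM, *Max* at 7.30 ± 2.18 TPM, *Mxd4* at 5.96 ± 0.827 TPM, and *Mxd3* at 5.05 ± 0.573 TPM. *Mxd1* closed the expressed members at 1.45 ± 0.159 TPM.

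Not every neighbor in this order was separated by its spread. The WT ranges of *Myc* and *Mlx*, of *Mlx* and *Mxi1*, and of *Mxd3* and *Mxd1* did not overlap. From *Mxi1* through *Mlxip*, *Max*, and *Mxd4* to *Mxd3*, each gene overlapped the next, so these neighbors were not separated by 5 samples, although the WT ranges of *Mxi1* and *Mlxip* lay above those of *Mxd4* and *Mxd3*. In recent KO GMPs the means kept this order except that *Mlxip* (9.74 ± 1.84 TPM) stood before *Mxi1* (8.57 ± 1.26 TPM). The level of *Mlx* depended on which transcripts were counted, since protein-coding transcripts alone gave 22.9 TPM in WT, and those of *Mxd1* gave 0.880 TPM.

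**Figure D1:**
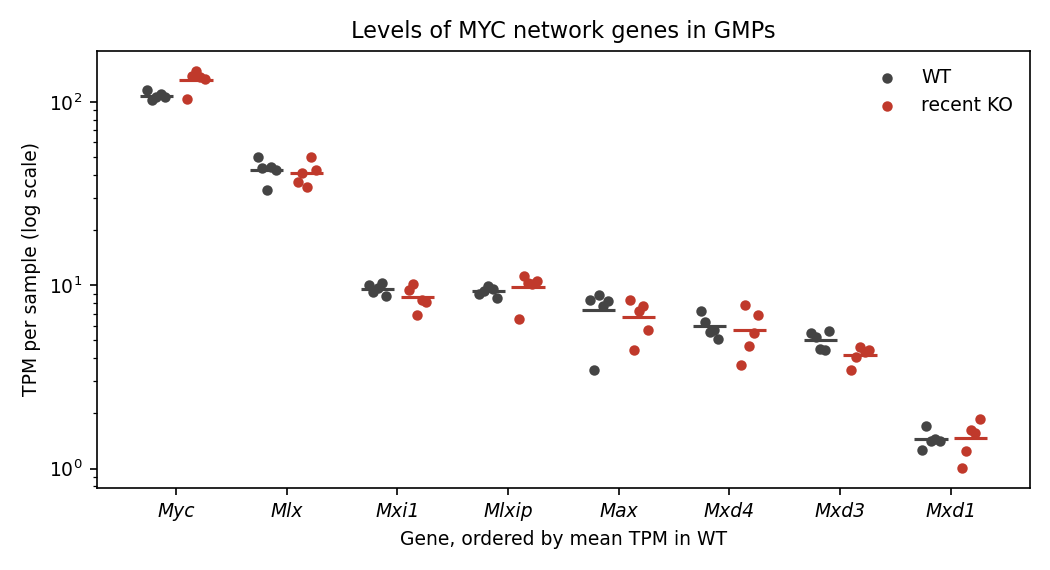
TPM of the 8 expressed network genes on a log axis, with 1 point per sample (5 WT in grey, 5 recent KO in red) and a bar at each group mean. *Myc* and *Mlx* stand apart at the top and *Mxd1* at the bottom, whereas from *Mxi1* to *Mxd3* each gene overlaps the next in WT.

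Of the 10 genes, 8 were expressed highly enough to enter the test of recent KO against WT, and none of the 8 passed the threshold (edgeR adjusted p under 0.05), where 0.331% of all 12381 tested genes did (15 higher and 26 lower). At an unadjusted p under 0.05 were 2 of the 8, *Myc* with a higher and *Mxd3* with a lower estimate, and 10.2% of all tested genes were at that level. The estimates were higher for 2 and lower for 6 genes, and their median log2 fold change was -0.16 against -0.0018 over all tested genes. The sign of *Mxd1* and *Mlxip*, whose estimates lay close to 0, changed with the scaling or model, as given with the alternatives. With DESeq2, none of the network genes passed either. All values of single samples below are normalized CPM unless TPM is named. Fold changes are recent KO over WT from the edgeR fit to rounded reads with TMM normalization, unless another method is named.

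*Myc* (chr15:61985391-61990374, plus strand, GRCm38), the central activator, had 261, 232, 262, 277, and 235 CPM in WT 1 to 5 and 256, 291, 323, 299, and 291 CPM in recent KO 1 to 5. Recent KO 2 to 5 were above every WT sample, and recent KO 1 lay within the WT range. The means were 254 ± 19.3 CPM (SD, n = 5) and 292 ± 24.1 CPM (SD, n = 5). The log2 fold change was 0.20 (SE 0.07, 95% interval 0.05 to 0.36), or 1.15-fold. The difference did not pass over all tested genes (edgeR adjusted p = 0.328), and the upper end of its interval was 1.28-fold. An exact two-sided permutation test of the same 10 CPM values gave an unadjusted p = 0.0317. In TPM the pattern was the same, with 102 to 116 in WT, 103 in recent KO 1, and 132 to 148 in recent KO 2 to 5. On that scale the median log2 fold change of all genes was itself 0.048 (limma on log2(TPM + 1)).

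*Mycn* (chr12:12936093-12941914, minus strand), which encodes a close relative of MYC, was near the limit of detection. It had 2, 0, 2, 1, and 2 reads in WT 1 to 5, and 0, 4, 13, 12, and 6 reads in recent KO 1 to 5. No WT sample had more than 3 reads, whereas recent KO 2 to 5 did, and recent KO 1 had none. Its highest level, in recent KO 4, was 0.731 CPM, and its WT mean of 0.0475 TPM compares with 108 TPM for *Myc*. The gene fell under the filter on low counts, and without the filter edgeR gave an adjusted p = 0.414, and DESeq2 gave an adjusted p = 0.347. *Mycl* (chr4:122995652-123002485, plus strand), the third gene of the family, had 2 reads in WT 1, 1 read each in recent KO 2 and 3, and none in the other 7 samples. Neither gene thus exceeded 3 reads in any WT sample.

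*Max* (chr12:76937269-76962201, minus strand) encodes the obligate partner of MYC and of the MXD proteins. It had 16.6, 7.49, 19.4, 15.5, and 16.9 CPM in WT 1 to 5 and 18.4, 8.53, 14.6, 13.5, and 11.03 CPM in recent KO 1 to 5. WT 2 and recent KO 2 were the lowest samples of their groups, and the ranges of the groups overlapped. *Max* consequently had the widest spread of the 8 tested genes, with a coefficient of variation of 29.9% in WT, compared with 7.61% for *Myc*. The log2 fold change was -0.20 with a 95% interval of -0.70 to 0.30 (edgeR adjusted p = 0.844), so that neither a decrease nor an increase of moderate size was resolved. Leaving out WT 2 gave -0.37, and leaving out recent KO 2 gave -0.08, neither past the threshold. The ratio of *Myc* to *Max* TPM was 12.1 to 14.3 in 4 WT samples and 29.4 in WT 2, and it was 12.5 to 31.2 in recent KO.

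The antagonist *Mxd3* (chr13:55325168-55329823, minus strand), a repressor that pairs with MAX, showed the clearest separation of the network. It had 6.80, 7.27, 6.47, 6.37, and 7.36 CPM in WT 1 to 5 and 4.99, 5.04, 5.91, 5.60, and 5.72 CPM in recent KO 1 to 5. Every recent KO sample was below every WT sample, and *Mxd3* was the 1 of the 8 tested genes without overlap, compared with 2.43% of all tested genes. The means were 6.86 ± 0.450 and 5.45 ± 0.416 CPM (SD, n = 5 each). The log2 fold change was -0.33 (SE 0.11, 95% interval -0.57 to -0.08), or 0.797-fold, and it did not pass over all tested genes (edgeR adjusted p = 0.326). An exact two-sided permutation test of CPM gave 0.00794, the smallest value that 5 samples against 5 allow. In TPM the groups overlapped (4.41 to 5.65 in WT, 3.44 to 4.58 in recent KO), and the exact two-sided permutation p was 0.0476. *Mxd3* rested on 71 to 139 reads per sample, and it shares 105 exon bases with *Prelid1* on the opposite strand, which stood at 475 ± 56.9 and 448 ± 37.9 CPM (edgeR adjusted p = 0.817).

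*Mxi1* (chr19:53310518-53375810, plus strand), also known as MXD2, had 25.3, 24.8, 28.6, 30.9, and 23.4 CPM in WT 1 to 5 and 27.001, 25.2, 18.7, 22.3, and 21.6 CPM in recent KO 1 to 5. Recent KO 3 to 5 were below all WT samples, while recent KO 1 and 2 were within the WT range. Its log2 fold change was -0.21 (95% interval -0.45 to 0.02, edgeR adjusted p = 0.525).

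For *Mxd4* (chr5:34173883-34187720, minus strand), 20.02, 19.7, 16.7, 17.02, and 16.2 CPM were measured in WT 1 to 5 and 14.1, 20.6, 12.2, 16.2, and 17.01 CPM in recent KO 1 to 5. Recent KO 1, 3, and 4 were below every WT sample, recent KO 4 by a narrow margin, and recent KO 2 was the highest of all 10 samples. The log2 fold change was -0.17 (95% interval -0.44 to 0.11, edgeR adjusted p = 0.730).

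*Mxd1* (chr6:86647042-86669161, minus strand), which is known for its rise in maturing granulocytes, ranged from 6.22 to 7.88 CPM (WT) and from 5.45 to 8.40 CPM (recent KO). Recent KO 1 and 2 were below every WT sample and recent KO 5 was above, so that the groups overlapped, with a log2 fold change of -0.04 (95% interval -0.35 to 0.26, edgeR adjusted p = 0.953). This sign turned to 0.03 when reads were scaled by library size alone.

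**Figure D2:**
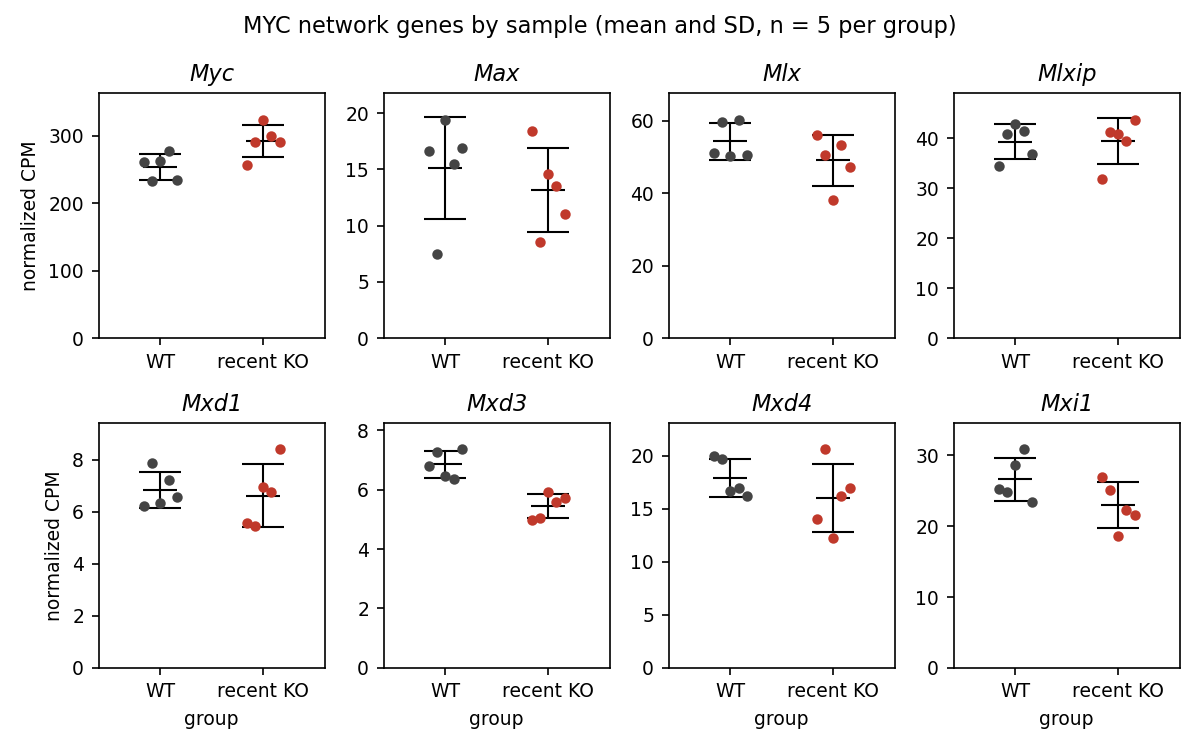
Normalized CPM of each of the 8 tested network genes, with 1 point per sample (5 WT in grey, 5 recent KO in red), and bars for the mean and SD of each group. Each axis starts at 0. The groups are separate for *Mxd3* alone, 4 of 5 recent KO samples are above all WT samples for *Myc*, and *Max* has 1 low sample in each group.

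2 further repressors, MNT and MGA, also bind MAX. *Mnt* had 4.45 to 6.54 CPM in WT samples and 4.69 to 5.91 CPM after deletion (log2 fold change -0.10, 95% interval -0.40 to 0.20, edgeR adjusted p = 0.870). *Mga*, which encodes a large scaffold protein of a repressive complex, differed between the scales. In CPM it was 17.2 to 19.5 in WT and 17.3 to 21.6 in recent KO, with a log2 fold change of 0.04 (95% interval -0.14 to 0.23, edgeR adjusted p = 0.908). In TPM it was 3.71, 4.44, 3.54, 3.38, and 3.35 in WT 1 to 5 and 5.51, 4.72, 4.69, 4.80, and 4.48 in recent KO 1 to 5, without overlap. An exact two-sided permutation test of these TPM gave an unadjusted p = 0.00794, whereas limma on log2(TPM + 1) over all genes gave a log2 fold change of 0.32 with an adjusted p = 0.310. The reads of *Mga* were thus similar, and the separation appeared only after division by the estimated transcript length. The share of all genes that separate in TPM was not counted.

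Within a sample, *Myc* was set against the sum of its 6 antagonists (*Mxd1*, *Mxd3*, *Mxd4*, *Mxi1*, *Mnt*, and *Mga*) in TPM. The ratio was 4.08, 3.65, 4.15, 4.22, and 4.18 in WT 1 to 5 and 4.30, 4.81, 6.27, 5.40, and 4.95 in recent KO 1 to 5. Every recent KO sample was above every WT sample, with recent KO 1 closest to WT. The sum of the antagonists itself overlapped, at 25.3 to 28.5 TPM in WT and 23.6 to 28.8 TPM in recent KO. The ratio was formed with the single genes known, and it is a description without a test. It combines single-gene differences, none of which passed the threshold. How often such a ratio separates the groups for other genes was not counted.

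In the glucose-sensing branch, *Mlx* (chr11:101087277-101092207, plus strand) had 51.2, 59.5, 50.1, 60.2, and 50.6 CPM in WT 1 to 5 and 55.9, 50.6, 38.0, 53.3, and 47.3 CPM in recent KO 1 to 5. Recent KO 3 and 5 were below the WT range, and the other recent KO samples lay within it. The log2 fold change was -0.15 (95% interval -0.37 to 0.07, edgeR adjusted p = 0.669). *Mlx* shares 385 exon bases with *Psmc3ip* on the opposite strand, which stood at 68.4 ± 2.81 and 68.5 ± 9.31 CPM. Whether reads were assigned by strand is not given in the sources used here, so reads in the shared bases of these genes cannot be told apart.

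*Mlxip* (chr5:123394798-123457932, plus strand), the sensor that pairs with MLX, had 34.5, 40.9, 42.9, 41.5, and 36.9 CPM in WT 1 to 5 and 31.8, 41.3, 40.9, 39.5, and 43.7 CPM in recent KO 1 to 5. The groups overlapped almost entirely, with recent KO 1 the lowest and recent KO 5 the highest of the 10 samples. The log2 fold change was below 0.01 in size, with a 95% interval of -0.19 to 0.20 (edgeR adjusted p = 0.994), which spans 0.875-fold to 1.15-fold. *Mlxipl*, the other sensor, had 0 to 15 reads per sample and was not tested. The ratio of *Mlx* to *Mlxip* in TPM was 3.34 to 5.57 in WT and 3.37 to 5.57 in recent KO.

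**Figure D3:**
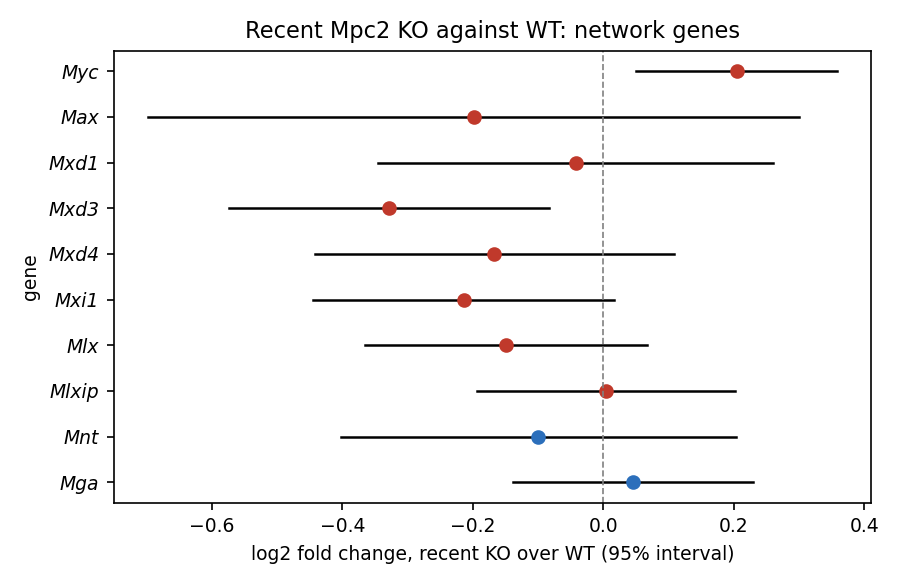
Log2 fold change with its 95% interval from the edgeR fit (recent KO over WT), for the 8 tested network genes (red) and for *Mnt* and *Mga* (blue). The intervals of *Myc* (0.05 to 0.36) and *Mxd3* (-0.57 to -0.08) do not reach 0, the others do, and that of *Max* is the widest.

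Annotated transcripts of the network genes were compared by their share of a gene's TPM. For 17 transcripts of the 8 expressed genes with at least 10% in a group, none of the shares passed (exact two-sided permutation tests with Benjamini-Hochberg adjustment, smallest adjusted p = 0.92). The leading transcript of *Myc*, Myc-205, held 57.2% ± 4.73 in WT and 57.9% in recent KO. The most abundant coding transcript of *Mlx*, Mlx-202, held 34.0% ± 7.61 in WT and 32.7% in recent KO, nearly equaled by Mlx-206, which is annotated as a processed transcript and held 33.5% ± 10.6 and 32.1%. For *Mxd1*, the coding Mxd1-201 held 61.3% ± 13.6 and 64.7%, and the rest belonged to Mxd1-204, annotated as a retained intron. Some shares varied widely between samples of a group, since Max-201 held 39.4% to 87.4% among WT samples and 58.1% to 91.1% among recent KO samples. Mlx-204, another processed transcript, held 0% to 18.9% and 0% to 27.8%. Mxd3-201 (96.3% and 97.2%), Mlxip-202 (81.7% and 80.6%), Mxi1-203 (62.9% and 57.6%), and Mxd4-201 (51.6% and 51.9%) led their genes in WT and recent KO alike.

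Of 80 further genes of the same pathways, 77 were tested and 0 passed (edgeR), and 4 were at an unadjusted p under 0.05, where 0.331% and 10.2% of all tested genes were. Among 40 genes that MYC is known to activate, 24 had higher and 16 had lower estimates, and the median log2 fold change was 0.04. The 3 with the smallest p were *Tfrc*, the transferrin receptor (-0.48, edgeR adjusted p = 0.412), *Slc19a1*, a folate transporter (0.18, adjusted p = 0.415), and *Nop16*, a ribosome assembly factor (0.12, adjusted p = 0.454). The value of *Tfrc* leaned on WT 4 at 49.9 CPM. The remaining WT mice had 19.5 to 28.1 CPM and the recent KO pools 20.7 to 22.2 CPM, and the log2 fold change was -0.22 without WT 4. WT samples had 70.7 to 80.9 CPM of *Slc19a1*, and recent KO samples had 73.6 to 94.6 CPM. For *Nop16* these ranges were 239 to 258 CPM and 248 to 280 CPM.

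Some activated targets were looked up after their values were seen. *Slc7a5*, an importer of large neutral amino acids, was the remaining gene at an unadjusted p under 0.05 (log2 fold change 0.22, edgeR adjusted p = 0.487). *Gnl3*, or nucleostemin, was the 1 gene of the 40 whose groups did not overlap (203 to 214 CPM for WT, 215 to 228 CPM for recent KO, log2 fold change 0.07, edgeR adjusted p = 0.692), where 2.43% of all tested genes did not overlap. *Odc1*, the first enzyme of polyamine synthesis (0.07, adjusted p = 0.792), *Ldha*, lactate dehydrogenase A (0.21, adjusted p = 0.531), and *Ncl*, nucleolin (-0.06, adjusted p = 0.879), did not pass in edgeR. E-boxes were present in 10 of the 32 activated targets that had a promoter window, against 8.09% of all 27025 genes with a window.

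No cofactor gene passed the threshold. The 13 coactivators of MYC and corepressors of MXD proteins had a median of 0.03 on the log2 scale, and their extremes were *Zbtb17*, or MIZ1, through which MYC represses (-0.14, edgeR adjusted p = 0.672), and *Sin3b*, the scaffold that links MXD proteins to histone deacetylases (0.13, adjusted p = 0.604). *Ncor1*, another corepressor, was at -0.12 (adjusted p = 0.601). The 7 genes that govern MYC protein turnover had a median of 0.08, with the ubiquitin ligase genes *Huwe1* at 0.14 and *Skp2* at 0.08. Protein levels of MYC were not measured.

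Genes that MYC represses and targets of MLX likewise held none past the threshold. Of 6 repressed genes 5 were tested, their median log2 fold change was 0.09, and those with the smallest p were *Ndrg1* (0.18, edgeR adjusted p = 0.643), *Gadd45a* (-0.17, adjusted p = 0.811), and *Ndrg2* (0.21, adjusted p = 0.842). *Ndrg2* depended on recent KO 2, at 44.5 CPM while the remaining pools had 14.1 to 29.8 CPM, and was -0.08 without it. Of 11 targets of MLX and its sensors 10 were tested, with a median of 0.02, led by *Acaca*, acetyl-CoA carboxylase (0.19, adjusted p = 0.554), *Bhlhe40*, a repressor (-0.48, adjusted p = 0.737), and *Gpd1*, glycerol-3-phosphate dehydrogenase (0.38, adjusted p = 0.762). *Bhlhe40* and *Gpd1* rested on few reads, 6 to 35 and 10 to 33 per sample. *Txnip* and *Arrdc4*, arrestin-like genes by which glucose sensing through MLX is often read and also looked up afterwards, had log2 fold changes of -0.09 (95% interval -0.37 to 0.18) and -0.06 (95% interval -0.35 to 0.23). *Txnip* ranged from 20.4 to 28.7 CPM in WT samples and from 15.9 to 25.0 CPM in recent KO samples.

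**Figure D4:**
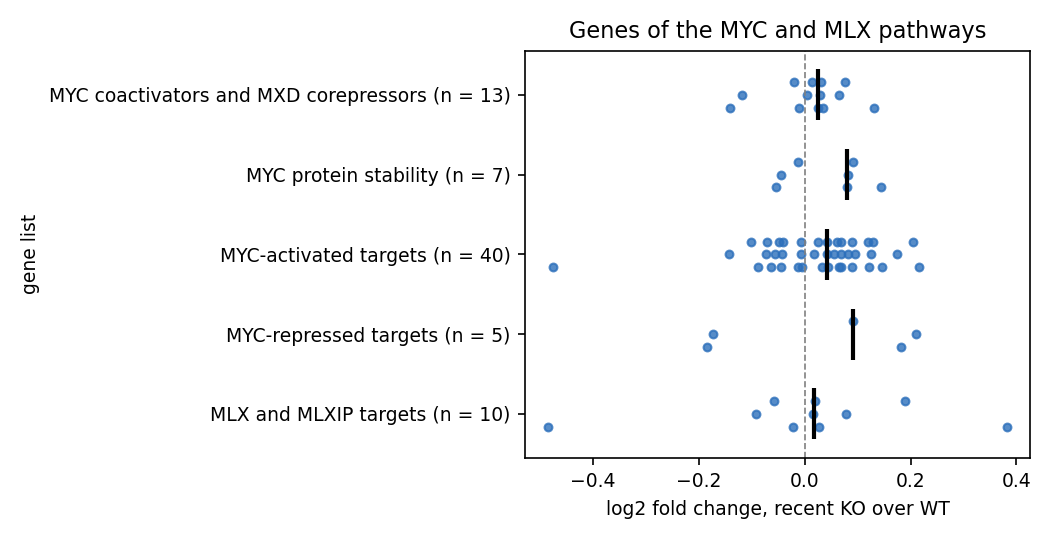
Log2 fold change (recent KO over WT) of each tested gene of 5 pathway lists, with 1 point per gene and a black bar at the median. Medians lie between 0.02 and 0.09, and no gene passed the threshold.

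The genes whose profile across the 10 samples was most like that of *Myc* were found by the root mean square difference between centered log2 CPM, over 7153 genes with at least 10 CPM. They were *Arl4a*, a small GTPase of the ARF family (0.0743), *Rhot1*, a GTPase of the outer mitochondrial membrane (0.0755), *Cct8*, a chaperonin subunit (0.0762), *Pitrm1*, a mitochondrial peptidase (0.0788), and *Ctnnb1*, or beta-catenin (0.0790). *Myc* itself varied by 0.145 around its own mean on this log2 scale. All 5 had higher estimates in recent KO (log2 fold changes 0.08 to 0.22), and none passed (edgeR adjusted p = 0.348 to 0.748). Their shared direction follows from choosing them by likeness to *Myc* and is not a separate observation. The likeness describes these samples, which share their libraries, and carries no test.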

How the data were processed

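GMPs of 5 WT and 5 recent KO samples were analysed, with groups and replicate numbers from the sample titles. Prolonged KO samples were not analysed here. The authors made SMARTseq V4 libraries, sequenced paired-end reads, and quantified Gencode M27 transcripts with Salmon (version 1.5.1 in the submitters' processing notes). The authors deposited, per transcript, Salmon's estimated counts, which need not be whole, and TPM, which adjusts for transcript length and gives each sample an equal sum. Filters on reads are not given in the sources used here. A deposited table of the authors' own DESeq2 comparison (fold changes and p-values) was not used. No other per-sample column was left out.

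The network genes and lists were chosen with earlier results of these data known. Transcripts were matched to GENCODE M21 (GRCm38), an older annotation than M27, by identifier without version. Of 140789 transcripts, 137161 matched (97.4%), and the rest held 0.348% to 0.390% of reads. Estimated counts were summed to 51717 genes and rounded. edgeR 4.0.16 (R 4.3.3) tested 12381 genes kept by filterByExpr (minimum count 10) with TMM normalization and the quasi-likelihood test, the group being the only term, and p-values were adjusted by Benjamini-Hochberg (threshold 0.05). The edgeR step was also run on counts simulated from the fitted means and dispersions, with results not given here. Intervals and permutation p-values are for single genes. A floor of 3 counts covers counting error only, because the cDNA was amplified. Replicates of a group differed by more than sampling noise. WT samples are separate mice, recent KO samples separate pools, and a pool averages over its mice.

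Named were the network genes, *Mpc2*, *Mnt*, *Mga*, *Mlxipl*, in each pathway list the genes past the threshold and the 3 with the smallest p, the 5 genes most like *Myc*, and the leading transcripts. The single result of 1 gene of these lists is not reported here. Others were named after their values were seen. Alternatives were RLE or library size scaling, no filter or a minimum mean count of 50, offsets for transcript length, the replicate number as a block, DESeq2 1.42.0, limma 3.58.1 on log2(TPM + 1) and log2(TPM + 0.1), leaving out each sample, and, added after seeing the data, protein-coding transcripts only for WT levels. BLAST 2.17.0 found transcripts of other genes at least 95% identical over 200 bases only for *Mlx* (*Psmc3ip*), *Mxd4* (*Gm42846*), and *Mlxip* (*Gm15747*), each of which overlaps its network gene on the genome. Promoter sequences came from RefSeq (GRCm38.p6). Python 3.11.15, pandas 2.3.3, numpy 2.4.6, and scipy 1.17.1 did the rest.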

Additional observations from a re-analysis of the deposited data

Results flagged for a closer look

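In 5 of 90 groups of 5 values, a single sample stood apart by Dixon's criterion, and chance alone would give about 4.5. *Mycl* was at 0.0979 CPM in WT 1, from 2 reads, and at 0 in the other WT samples. *Tfrc* was at 49.9 CPM in WT 4 against 19.5 to 28.1 CPM in the other WT samples. In recent KO 1, Mxd1-201 held 82.5% of *Mxd1* TPM against 57.2% to 64.4% in the other recent KO samples, and the retained intron transcript Mxd1-204 held 17.5% against 35.6% to 42.8%. These shares are complements and count as 1 pattern. In recent KO 2, Mlx-206 held 43.7% of *Mlx* TPM against 27.1% to 30.2%.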

How the results depend on the processing

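No network gene passed the threshold in any of 19 alternatives (152 refits of the 8 tested genes, smallest adjusted p = 0.186), nor did a gene of the pathway lists, nor a transcript share in 11 alternatives. *Myc* stayed higher (log2 fold change 0.17 to 0.28) and *Mxd3* lower (-0.36 to -0.23) in all 19. *Mxd1* turned to 0.033 with library size scaling and ranged from -0.144 to 0.0183 when single samples were left out. *Mlxip* turned to -0.003177 with the transcript length offset and -0.000376 with the replicate block, and ranged from -0.0397 to 0.0712 without single samples. Also without single samples, *Mga* ranged from -0.00608 to 0.0788 and *Ndrg2* from -0.0846 to 0.367. Library size scaling moved the median of all genes by 0.07, and limma on log2(TPM + 1) and log2(TPM + 0.1) moved it by 0.050 and 0.056. WT levels from protein-coding transcripts alone moved for *Mlx* (22.9 TPM) and *Mxd1* (0.880 TPM).

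Of all tested genes, 41 were called (15 higher, 26 lower), 46 with library size scaling (26 higher, 20 lower), 206 without a filter, 156 with DESeq2 (77 higher, 79 lower), 25 with limma on log2(TPM + 1), and 24 with limma on log2(TPM + 0.1). Leaving out single samples gave 25 to 91 calls, the most without recent KO 2. The *Mpc2* call was lost with the length offset (-1.40, adjusted p = 0.0741) and with limma (-1.35, adjusted p = 0.130, and -1.38, adjusted p = 0.138). Without single samples its log2 fold change was -1.60 to -1.31, and without recent KO 1 its adjusted p was 0.05002. The cause of these changes was not tested.

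Samples with the same replicate number did not deviate together (correlations -0.177 to 0.058), and the main fit did not pair them. The correlations cannot show whether same-numbered samples were processed together, because differently numbered samples were not compared. With the replicate block, 20 genes were called (4 higher, 16 lower), and *Mpc2* was at -1.46 (adjusted p = 0.0577). Depth limits *Mycn*, *Mycl*, and *Mlxipl*, which had at most 15 reads per sample.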
